A study of Mus musculus with 3 samples.

Results

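The cells described here are segmented cells of mouse mammary tumours that held transcripts of Pi16, Dpt and Clec3b, 3 genes that mark the adventitial, or universal, type of fibroblast. Cells entered with at least 20 transcripts of the gene panel, a volume of 50 µm3 or more and a volume of no more than 3 times their section's median. Of the 1747403 kept cells, 12226 (0.700%) carried at least 3 transcripts of the 3 genes together and at most 1 of Cd163, Folr2 and Ccl8, which mark resident-type macrophages. They were chosen by these transcript counts and are called Pi16/Dpt/Clec3b-gated cells. Tumour 1 held 5420 of them among 619770 kept cells (0.875%), tumour 2 held 4740 among 453995 (1.04%), and tumour 3 held 2066 among 673638 (0.307%). They were set against all other kept cells and against 96535 Col1a1-high cells, in which the collagen gene Col1a1 made up at least 15% of the panel transcripts and at most 1 transcript came from the 3 gate genes.

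The samples were sections of formalin-fixed, paraffin-embedded mammary tumours of MMTV-PyMT mice, 1 section from each of 3 tumours, labelled WT and imaged on the MERSCOPE instrument, which reads single transcripts in place by fluorescence. In this model the mouse mammary tumour virus promoter drives the polyoma middle T oncogene in mammary epithelium, and carcinomas form there. All 3 tumours formed 1 group with no control tissue, no treatment was given, and neither age nor what WT refers to is stated in the labels. The tumour was the replicate throughout (n = 3). The labels do not say whether the tumours came from different mice, so p-values measure the spread between these tumours.

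Adventitial fibroblasts lie in the outer sheath of vessels, in fascia and in the loose connective tissue around organs. Pi16 encodes a secreted peptidase inhibitor, Dpt encodes dermatopontin, an extracellular matrix protein, and Clec3b encodes tetranectin, a plasminogen-binding protein. Fibroblasts of this type are regarded as a reserve from which more specialised fibroblasts can arise, whereas fibroblasts that lay down collagen and contractile or matricellular proteins are typical of tumour stroma.

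The panel counted 258 genes and 27 blank codes, which have no target and so count false reads. Sections gave 60759690 to 78051090 panel transcripts. No cell identifier was shared between sections. The gate asks for a number of transcripts and not for a share, so the rule itself favours cells with more transcripts. The gated cells were larger and deeper than the cells they were compared with. Their median transcript number was 161, 181 and 113 in tumours 1, 2 and 3, against 118, 88 and 94 in Col1a1-high cells, and their median volume was 872, 946 and 1004 µm3 against 590, 698 and 680 µm3. Blank codes took 0.492 to 0.626% of all decoded transcripts in gated cells and 0.479 to 0.557% in Col1a1-high cells. Levels below are transcripts per 1000 panel transcripts for the 7 genes used to choose cells. For the other 251 genes they are transcripts per 1000 transcripts of those 251 genes, so that Col1a1 does not enter the total.

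The genes of the gate are a description, since they chose the cells. Pi16 stood at 13.4, 17.3 and 24.5 per 1000 panel transcripts in the gated cells of tumours 1, 2 and 3, Dpt at 9.61, 5.16 and 5.94, and Clec3b at 7.78, 5.38 and 8.98. In Col1a1-high cells, the levels were 0.868 to 1.504 for Pi16, 0.281 to 0.472 for Dpt and 0.151 to 0.223 for Clec3b. Col1a1 itself stood at 249, 365 and 330 in gated cells, at 335, 388 and 399 in Col1a1-high cells and at 35 to 45 in the other kept cells. Summed over all gated cells, Col1a1 lay below the level of the cells chosen for it in each tumour and above that of the other kept cells, but not all kinds of gated cells shared this level.

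The label "adventitial" could be checked only in part. Of 19 further adventitial markers listed, the panel held 2, Ly6c1 and Il33, and neither exceeded the highest blank code in gated cells or in Col1a1-high cells. Ly6c1 had a log2 difference of 0.05 ± 0.23 (SE) between the gated and the Col1a1-high cells, and Il33 of 0.46 ± 0.15, and neither passed the test. The name therefore rests on the gate genes, and the cells are called by their gate here.

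The gate held different kinds of cells. All 3 genes were detected in 21.9%, 16.5% and 23.5% of the gated cells of tumours 1, 2 and 3. Pi16 was the single gate gene detected in 23.3%, 32.1% and 25.9%, Dpt in 12.4%, 7.26% and 4.11%, and Clec3b in 1.79%, 1.52% and 0.920%. The remaining cells held a pair of the genes. These subsets were formed after the values were seen and are described without a test, and the genes named for them outside the rule for named genes (Cd36, Pparg, Lep, Retn, Crabp1 and Sox9) were chosen after their values were seen. The highest blank code stood at 1.14, 1.47 and 1.515 per 1000 in gated cells of tumours 1, 2 and 3, and levels of the other genes under it are not above background. No blank level was taken for each subset, and that of a subset may differ from this value of all gated cells.

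Gated cells with all 3 genes held the most Sfrp4, which encodes a secreted antagonist of Wnt ligands, among the subsets of more than 100 cells. That limit leaves out cells with Clec3b alone (97, 72 and 19 in tumours 1, 2 and 3) and, in tumour 3, the 85 cells with Dpt alone. Sfrp4 stood at 5.88, 6.03 and 9.88 per 1000 in tumours 1, 2 and 3 in cells with all 3 genes, at 0.286, 0.252 and 2.11 in cells with Pi16 alone, and at 0.210, 0.109 and 0.178 in cells with Dpt alone. Klf4, a zinc finger transcription factor, stood at 13.9, 7.69 and 18.9 in cells with all 3 genes, 3.79, 2.97 and 5.23 with Pi16 alone and 2.67, 1.64 and 1.83 with Dpt alone. Sfrp4 was above the highest blank code of all gated cells with all 3 genes in every tumour and with Pi16 alone in tumour 3. It was not above it with Dpt alone. For Klf4 the order of the 3 subsets was the same in each tumour.

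Cells with Pi16 alone held more Lrrc15, a surface protein of collagen-producing tumour fibroblasts, than any other subset. Its level was 10.8, 7.42 and 5.33 in tumours 1, 2 and 3, against 2.60, 2.05 and 1.33 in cells with all 3 genes and 1.36, 1.396 and 0.592 in cells with Dpt alone. Crabp1, which encodes a retinoic acid binding protein, was also highest in this subset, with 3.09, 1.73 and 1.69 in cells with Pi16 alone and 0.436, 0.446 and 0.256 in cells with all 3 genes. For comparison, Lrrc15 stood at 10.8, 4.94 and 5.39 in Col1a1-high cells.

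Cells with Dpt alone were poor in collagen transcripts and carried genes of adipocytes. Col1a1 stood at 92.6, 141 and 37.7 per 1000 panel transcripts in them, against 287, 413 and 403 in cells with all 3 genes. Cd36, a fatty acid transporter, stood at 12, 6.70 and 1.36 in cells with Dpt alone and at 0.772, 0.869 and 0.256 in cells with all 3 genes. Pparg, the transcription factor that drives adipocyte differentiation, stood at 5.09, 4.36 and 0.828 against 0.597, 0.629 and 0.179. Lep, the adipocyte hormone leptin, stood at 5.63, 3.73 and 1.07 against 0.369, 0.618 and 0.307, and Retn, which encodes resistin, at 2.38, 7.16 and 0.473 against 0.503, 0.560 and 0.205. All 4 genes were above the highest blank code of all gated cells with Dpt alone in tumours 1 and 2 and under it with all 3 genes. In tumour 3, where the Dpt-alone subset held 85 cells, none of the 4 exceeded it. Pdgfra, a receptor that marks fibroblasts, stood at 1.31, 2.16 and 0.651 with Dpt alone and at 5.23, 8.69 and 5.53 with all 3 genes.

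Levels also went with the summed count of the gate genes. Just inside the threshold, at a sum of 3, lay 2259, 2066 and 903 cells of tumours 1, 2 and 3, which made up the largest class of gated cells. Just outside it, at a sum of 2, lay 8657, 6688 and 4932 cells. Sfrp4 stood at 0.186, 0.183 and 0.223 at a sum of 2, at 0.452, 0.280 and 1.81 at a sum of 3, and at 9.69, 10.01 and 15.3 at a sum of 12 or more. Fn1, which encodes fibronectin, went from 14.6, 11.6 and 18.5 at a sum of 2 through 28.2, 22.9 and 40.1 at 3 to 179, 78.2 and 199.9 at 12 or more. Sox9, an epithelial transcription factor in these tumours, went the other way, from 36.6, 35.3 and 40.3 at 2 through 24.1, 20.95 and 30.1 at 3 to 2.90, 3.48 and 3.27 at 12 or more. Col1a1 stood at 128, 191 and 99.9 at a sum of 2 and 203, 307 and 237 at 3. Summed over the cells at the threshold, there were thus epithelial transcripts beside fibroblast ones. Whether single cells held both kinds was not tested, nor how many of these transcripts belonged to adjacent cells.

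**Figure D1:**
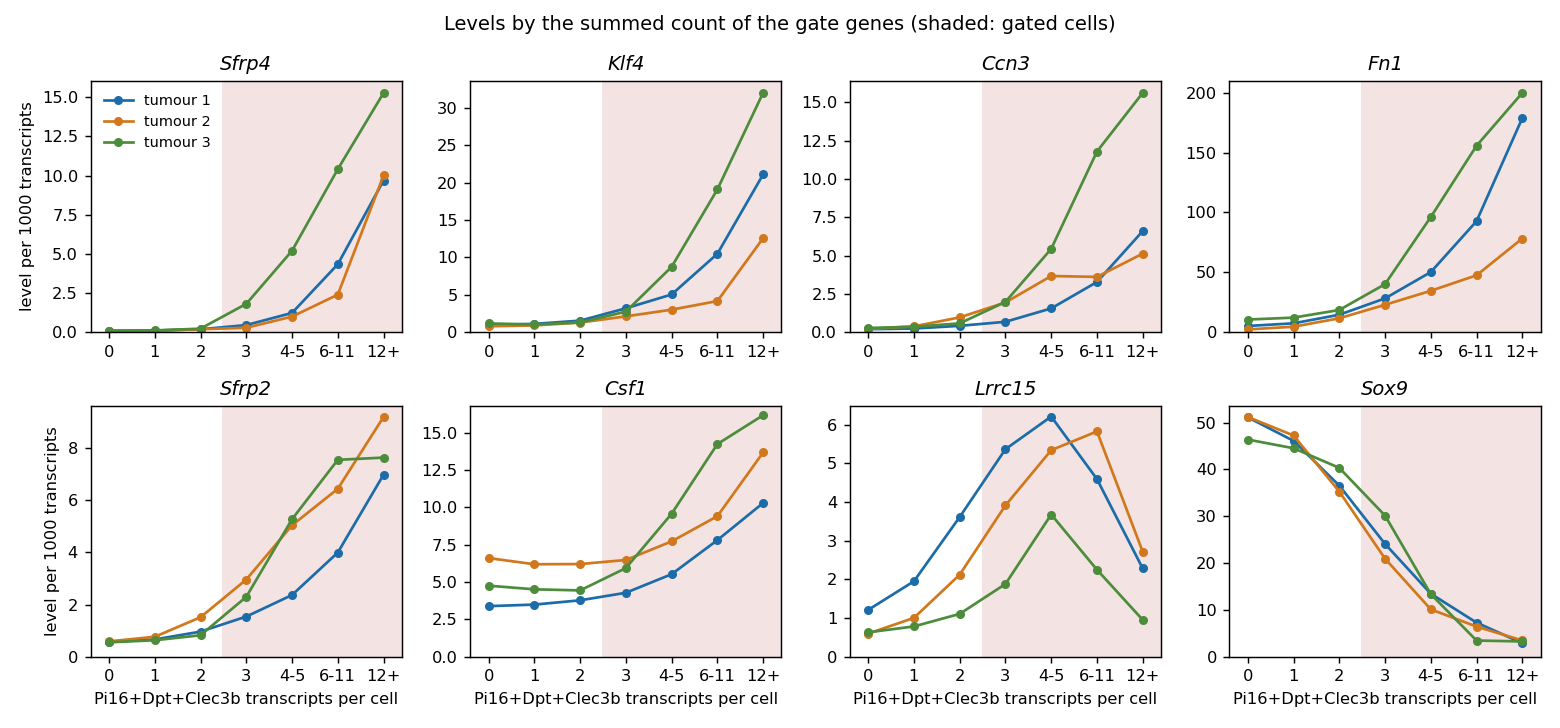
Level of 8 genes (transcripts per 1000 transcripts of the 251 genes outside the rule, linear axes from 0) against the number of Pi16, Dpt and Clec3b transcripts in a cell, with a line per tumour and the gated cells shaded. Sfrp4 lies at 0.452 or less in tumours 1 and 2 up to a sum of 3 and reaches 9.69 and 10.01 at 12 or more, while Sox9 goes from 36.6 and 35.3 at a sum of 2 to 2.90 and 3.48.

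Against all other kept cells, gated cells showed more fibroblast and fewer epithelial transcripts. Sparc, a collagen-binding matrix protein, Postn, which encodes periostin, and Pdgfra were higher in all 3 tumours, and so were Sfrp4, Fn1 and Ccn3, which encodes a secreted matricellular protein. Sox9 and Gata3, transcription factors of mammary epithelium, were lower. Of the 251 genes tested by edgeR's quasi-likelihood F-test with Benjamini-Hochberg adjustment, 98 (39.0%) were higher and 80 (31.9%) lower in gated cells, and 182 (72.5%) had an unadjusted p under 0.05. The balance was the reverse among the 140 genes above the highest blank code of either arm in all 3 tumours. Of these 40 were higher and 70 lower. Without the tumour as a block the counts were 77 and 51.

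All 5 tested pan-fibroblast markers were higher, with a median log2 difference of 2.28 beside 0.08 over all genes tested. Pdgfra stood at 4.57, 6.39 and 3.34 per 1000 in tumours 1, 2 and 3 in gated cells and at 0.831, 0.886 and 0.524 in the others, a log2 difference of 2.47 ± 0.21 (SE, n = 3; edgeR adjusted p = 1.47e-09). Thy1, a surface glycoprotein of fibroblasts, differed by 2.96 ± 0.24 and Mmp2, a gelatinase, by 2.28 ± 0.22. Of 9 tumour matrix fibroblast markers 8 were higher, with a median of 1.94, among them Postn (2.504 ± 0.15) and Lrrc15 (1.94 ± 0.23). Of 6 proteases and inhibitors 5 were higher, with Mmp3, a stromelysin, at 2.63 ± 0.25. For each of these named genes the lowest gated value lay above the highest value of the others. The share of all 251 genes with such a gap is not given here, and 39.0% were called higher. The gap therefore says nothing particular of these genes.

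Transcription factors of mesenchymal transition followed, with 7 of 8 higher and a median of 1.02, although only 2 of the 8 exceeded the blank codes. Twist1 stood at 2.10, 2.95 and 2.57 in gated cells and at 0.380, 0.376 and 0.305 in the others (2.64 ± 0.23). The highest blank code of the others stood at 0.493, 0.432 and 0.4205. Twist1 was thus not above background there, and the size of its difference is uncertain. Of 6 genes on the Wnt antagonist list, 4 were higher, none was lower and the median was 1.68. The list also holds Rspo1, which enhances Wnt signalling. Sfrp4 led it with 4.62 ± 0.29, followed by Sfrp2 (2.41 ± 0.22) and Dkk3 (2.41 ± 0.19). Sfrp4 too lay under the highest blank code in the other kept cells, so the size of its difference is uncertain.

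Epithelial transcripts were fewer. Of 5 epithelial markers 4 were lower, with a median of -1.28. Sox9 stood at 16.1, 13.8 and 20.9 in gated cells and at 49.9, 50.2 and 46.0 in the others (-1.74 ± 0.14), and Gata3 at 15.8, 17.4 and 12.1 against 38.5, 52.5 and 27.4 (-1.55 ± 0.14). All 3 proliferation genes were lower, with a median of -0.87. Bglap3, an osteocalcin gene, had the largest negative value of the named genes (-1.96 ± 0.23), and the interferon regulator Irf7, the Wnt ligand Wnt5b and the arginine-degrading enzyme Arg1 were lower as well. The 5 epithelial markers still summed to 38.2 to 51.2 per 1000 in gated cells, against 101 to 118 in the others.

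In a fit with the blank codes added, 12 of the 27 blanks were higher in gated cells and 1 lower, with log2 differences up to 1.82. Some genes of other cell types were higher too, among them the T cell genes Cd3g (3.01 ± 0.24) and Prf1 (2.45 ± 0.28) and both endothelial genes. Of 14 T or NK cell genes 8 were higher and 0 lower, beside 39.0% and 31.9% over all genes. Of the 14, 4 had negative values and 3 exceeded the blank codes. Of 5 macrophage genes 1 was higher and 3 were lower. The part of neighbouring cells in these values was not tested. The T or NK cell list, 14 genes, summed to 9.14 to 10.9 per 1000 in gated cells and 8.84 to 11.4 in Col1a1-high cells, whose ranges overlap.

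**Figure D2:**
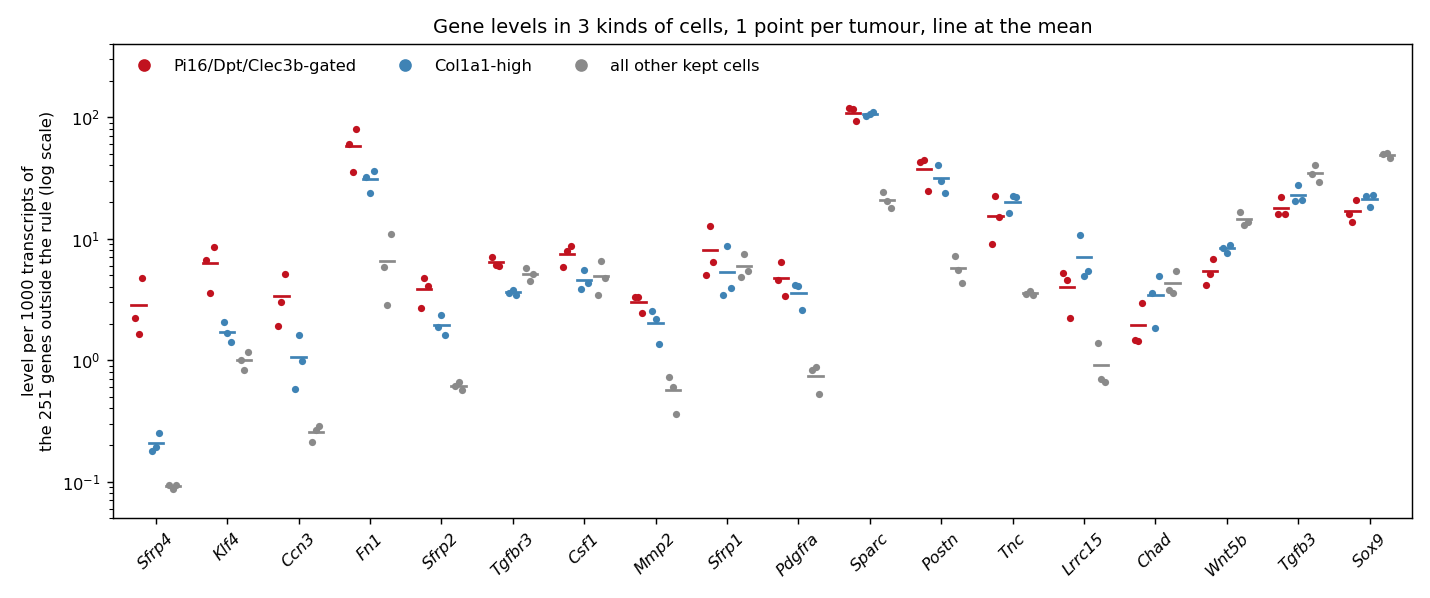
Level of 18 genes on a log axis (transcripts per 1000 transcripts of the 251 genes outside the rule) in gated cells, Col1a1-high cells and all other kept cells, with a point per tumour and a line at the mean of the 3 tumours. Sfrp4 lies at 1.63 to 4.75 in gated cells and at 0.178 to 0.252 in Col1a1-high cells, Sparc lies between 92.5 and 118 in both, and Sox9 separates the other kept cells, at 46.0 to 50.2, from both.

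Gated cells, with the Dpt-alone cells among them, were next compared with Col1a1-high cells of the same tumours. The latter were chosen for collagen and for at most 1 transcript of the gate genes. The difference was led by Sfrp4. Klf4, Ccn3 and Fn1 were also higher in gated cells. No gene was lower. The count was 6 higher (2.39%) and 0 lower (0.0%) of 251 genes by edgeR with Benjamini-Hochberg adjustment, while 62 (24.7%) had an unadjusted p under 0.05. DESeq2, which gave an adjusted p for 207 genes, called 21 higher and 14 lower, 5 of the 6 among them and the other, Trdv4, with no adjusted p. Again of 251, edgeR with library size as the sole scaling called 20 and 6.

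Sfrp4 stood at 2.21, 1.63 and 4.75 per 1000 in gated cells of tumours 1, 2 and 3 and at 0.178, 0.194 and 0.252 in Col1a1-high cells. The highest blank code of the Col1a1-high cells stood at 1.55, 1.49 and 1.99, so that Sfrp4 was not above background there, while each gated value lay above these blanks. The fitted log2 difference of 3.59 ± 0.24 (SE, n = 3; edgeR adjusted p = 0.00141) therefore rests on a level under the blanks, and its size is uncertain. Klf4 stood at 6.64, 3.56 and 8.55 against 2.05, 1.67 and 1.41 (1.74 ± 0.26; edgeR adjusted p = 0.0405). These groups were also apart, and the share of all genes with such a gap is not given here. Ccn3 stood at 1.93, 2.99 and 5.12 against 0.582, 1.61 and 0.984, a difference of 1.61 ± 0.26 with the same adjusted p from edgeR. In Col1a1-high cells Ccn3 was under the highest blank code in tumours 1 and 3 and Klf4 in tumour 3, and these genes met the blank criterion through the gated cells. Fn1 stood at 59.6, 35.2 and 80.1 against 32.4, 23.9 and 36.0 (0.80 ± 0.13). It was higher within each tumour, and tumour 2's gated cells lay just under tumour 3's Col1a1-high cells. Pparg and Trdv4, a T cell receptor segment, also passed, but neither exceeded the highest blank code of the gated cells in all 3 tumours. In a fit with the blank codes 1 of 27 was higher, and their log2 differences ran from -0.48 to 0.85, a range that holds Fn1's value and not those of Sfrp4, Klf4 and Ccn3.

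Over the other settings tried, the log2 difference of Sfrp4 ranged from 2.29 to 4.86 and its adjusted p from 2.43e-54 to 0.198. The highest p came from the interior, where no gene passed (27 at an unadjusted p under 0.05). There Klf4 differed by 0.92, Ccn3 by 0.97 and Fn1 by 0.16. Within the margin 14 genes were higher and 5 lower, 5 of the 6 genes among them, with Fn1 at 1.06. The difference between margin and interior was itself tested in edgeR by an interaction term, which passed for 0 of 251 genes (12 at an unadjusted p under 0.05, lowest adjusted p 0.402).

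The tumours bore unequally on this comparison. Without tumour 1 there were 18 higher and 10 lower genes, without tumour 3 there were 18 and 4, and both kept all 6. Without tumour 2 there were 3 and 1, and Fn1 missed the threshold (0.99, adjusted p = 0.0585 by edgeR, against 2.92e-10 to 0.861 over its other settings). Without the tumour as a block only Sfrp4 and Klf4 passed.

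Among secreted Wnt antagonists, Sfrp4 was the 1 of 6 genes that passed, and the list's median was 0.44 beside -0.02 over all genes tested. Over all genes 2.39% were higher. Sfrp2 stood at 2.71, 4.70 and 4.05 against 1.89, 2.34 and 1.61 in Col1a1-high cells (0.89 ± 0.17; edgeR adjusted p = 0.0546). Sfrp1 stood at 5.02, 12.6 and 6.403 against 3.46, 8.66 and 3.95 (0.53 ± 0.12), and Dkk3 at 7.38, 8.80 and 9.04 against 10.7, 7.24 and 9.05 (-0.15 ± 0.18). The 3 Sfrp genes were higher in gated cells in each tumour, whereas Dkk3 had no common direction. Sfrp2 passed with a gate of 5 or more transcripts, with a log2 difference of 1.64. It did not pass without tumour 2 (edgeR adjusted p = 0.139) or without the tumour as a block.

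Genes of the TGF-beta and BMP pathway showed 0 of 12 calls in either direction, beside 2.39% higher and 0.0% lower over all genes, a share at which 0 of 12 says nothing of the pathway. The median was -0.11. Tgfbr3, the co-receptor betaglycan, stood at 7.10, 6.01 and 6.002 in gated cells and 3.60, 3.77 and 3.44 in Col1a1-high cells (0.76 ± 0.14; edgeR adjusted p = 0.0546). The signalling receptor gene Tgfbr2 had a value of 0.50 ± 0.15, while the ligands Tgfb1 (-0.36 ± 0.17) and Tgfb3 (-0.41 ± 0.12) and the target gene Pmepa1 (-0.34 ± 0.14) had negative values. None of these passed.

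Among cytokines, 0 of 14 passed, which is likewise near the share over all genes. Csf1, the macrophage growth factor, stood at 5.82, 7.94 and 8.63 against 3.83, 5.56 and 4.28 (0.65 ± 0.13; edgeR adjusted p = 0.0546). The chemokine gene Ccl2 had a value of -0.36 ± 0.20. Tgfbr3 and Csf1 both passed without tumour 1 and without tumour 3. Neither passed without tumour 2 (edgeR adjusted p = 0.119 for each), without the tumour as a block or within the interior.

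Of the matrix genes set out in this paragraph, Fn1 alone passed, and the matricellular gene Ccn3, given above, passed as well. Sparc stood at 118, 116 and 92.5 in gated cells and 101, 105 and 111 in Col1a1-high cells (-0.02 ± 0.17), with a sign that turned under the library size scaling, among other settings. Postn stood at 42.7, 44.3 and 24.8 against 40.5, 29.6 and 23.7 (0.18 ± 0.17), and Pdgfra at 4.57, 6.39 and 3.34 against 4.12, 4.08 and 2.57 (0.33 ± 0.16). Tnc, which encodes tenascin-C, had -0.52 ± 0.19, the actin-associated Tagln -0.56 ± 0.26 and Lrrc15 -0.87 ± 0.27. Of the 9 matrix fibroblast genes only Fn1 passed, and the list's median was -0.47. None of 5 pan-fibroblast genes passed, with a median of 0.34. Over all genes 2.39% were higher and 0.0% lower, so the counts for these lists say nothing particular of matrix or fibroblast genes.

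The stricter gate of 5 or more transcripts called 44 genes higher and 39 lower, all 6 of the earlier genes among them. With it, Fn1 differed by 1.67, Csf1 by 1.24, Tgfbr3 by 1.28 and Mmp2 by 1.32. Among cells of both kinds with 50 to 150 transcripts, 31 were higher and 34 lower. Among cells with no epithelial marker transcript the counts were 46 and 36.

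Markers of other cell types were set beside this comparison. The 5 epithelial markers summed to 42.3, 38.2 and 51.2 per 1000 in gated cells and to between 49.2 and 50.3 in Col1a1-high cells. None was called, which is near the share over all genes. All 3 adipocyte genes on the panel, Lep, Pparg and Retn, had positive values against Col1a1-high cells, with a median of 1.58, Pparg passing and none above the blank codes. Their summed level was 2.77, 2.70 and 1.001 per 1000 in gated cells and 0.670, 0.901 and 0.533 in Col1a1-high cells. In tumours 1 and 2 their levels were higher in cells with Dpt alone than in cells with all 3 gate genes. Their part in the comparison was not tested. The 6 genes remained called when at least 2 gate genes were required, among 36 higher and 19 lower genes.

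Gated cells were most frequent at the outer edge of the tissue. Their share of kept cells within 150 µm of the edge (the margin) was 3.24%, 3.59% and 3.52% in tumours 1, 2 and 3, and at 500 µm or more (the interior) it was 0.546%, 0.603% and 0.0800%. The log2 ratio of margin over interior was 3.53 ± 1.67 (SD, n = 3; exact two-sided permutation p = 0.25, the smallest that 3 tumours allow). Tumour 3 had the largest ratio, 5.46, beside 2.57 in each of the other two. With a gate of 5 or more transcripts the log2 ratio was 4.84 ± 2.77 (SD, n = 3). Col1a1-high cells had a ratio of 1.43 ± 0.79, lower than that of gated cells in each tumour.

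In the outermost 50 µm gated cells made up 7.12%, 5.69% and 9.79% of kept cells. There were 45.8, 44.1 and 37.9 gated cells per 100 Col1a1-high cells there, and 6.69, 8.42 and 2.29 at 1000 µm or more. In tumour 3 this outermost band held 43.0% of the gated cells, and in tumours 1 and 2 it held 12.4% and 11.9%. The median gated cell lay 465, 415 and 66.6 µm from the edge, against 916, 871 and 649 µm for Col1a1-high cells and 1028, 1151 and 1194 µm for all kept cells. In tumours 1 and 2 many gated cells thus also lay beyond the margin.

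**Figure D3:**
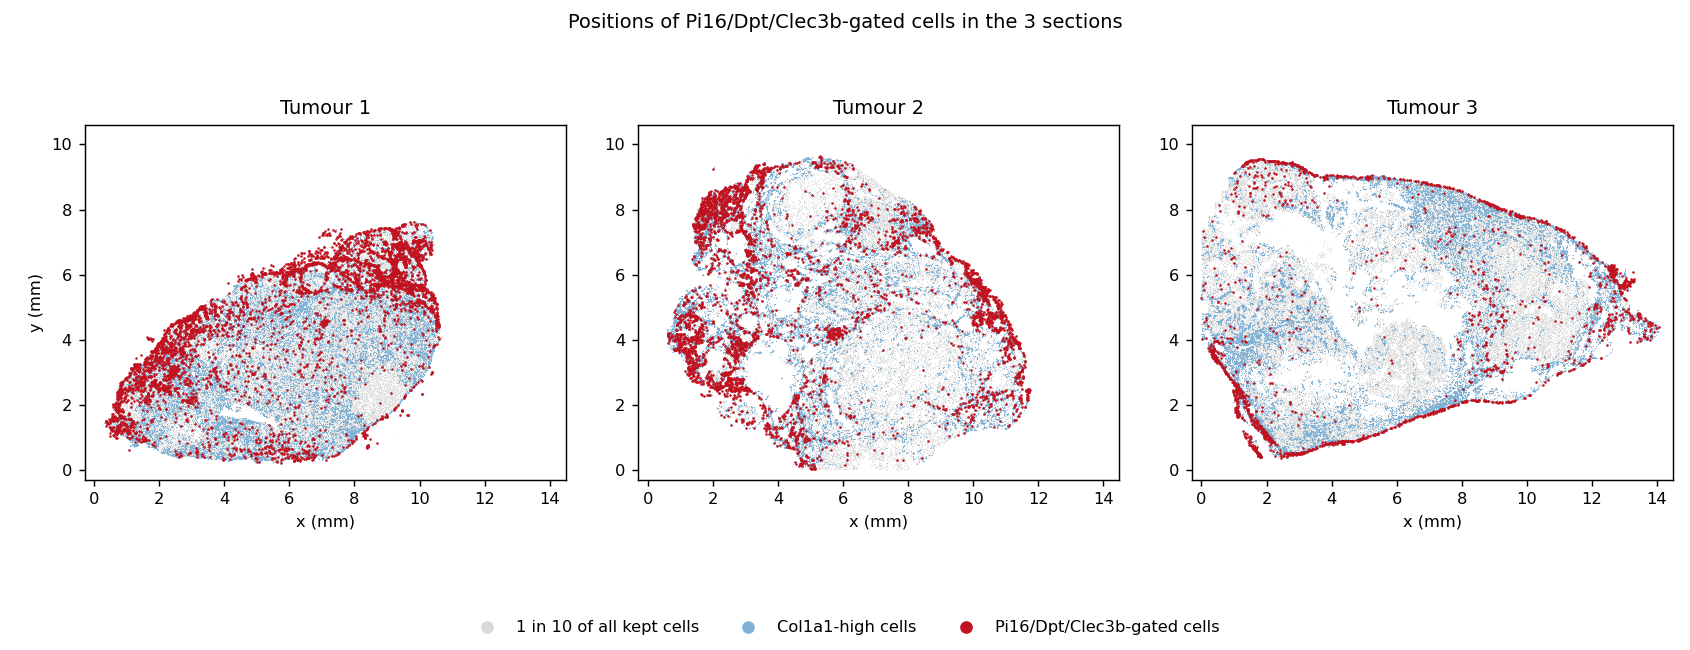
Position (mm) of the gated cells, of the Col1a1-high cells and of 1 in 10 of all kept cells in the sections of the 3 tumours, drawn to 1 scale. Gated cells are drawn with larger points than the other cells, so their density looks higher than it is. They line the outer edge in tumour 3, where 43.0% lie in the outermost 50 µm. In tumours 1 and 2 that band holds 12.4% and 11.9%, and gated cells also lie farther in.

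**Figure D4:**
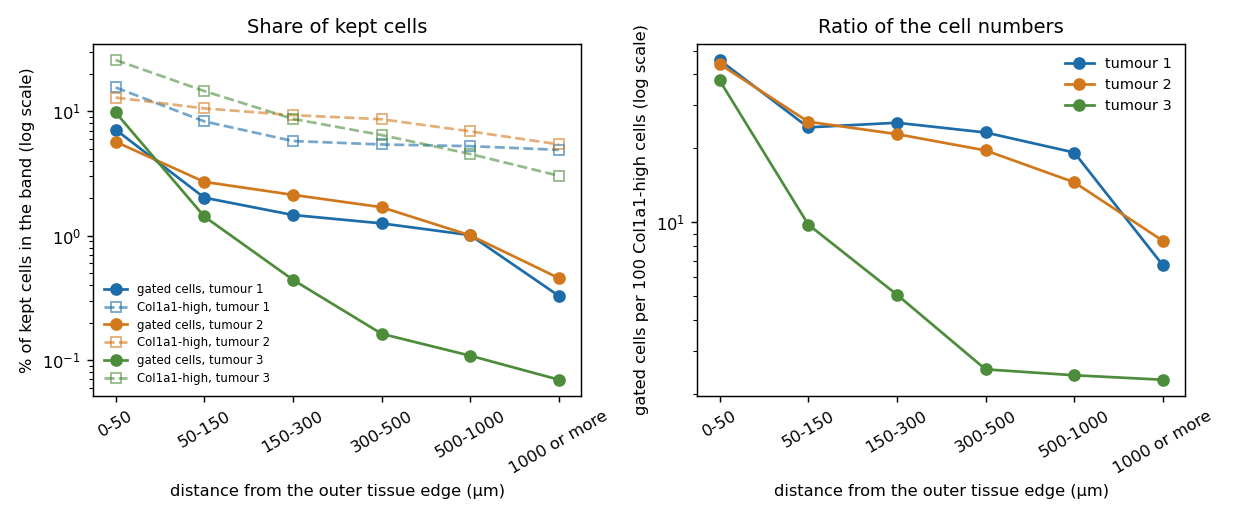
Left, share of kept cells (%, log axis) that are gated or Col1a1-high in 6 bands of distance from the outer tissue edge (µm), with a line per tumour. Right, gated cells per 100 Col1a1-high cells (log axis) in the same bands, which goes from 45.8, 44.1 and 37.9 in the outermost 50 µm to 6.69, 8.42 and 2.29 at 1000 µm or more.

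Gate genes differed along with position, as a description. Clec3b stood at 12.96, 12.8 and 13.6 per 1000 panel transcripts in gated cells of the margin and at 5.83, 2.45 and 1.60 in those of the interior. Pi16 stood at 14.1, 27.2 and 35.6 against 13.3, 13.8 and 10.1. Cells with all 3 genes had their median at 331, 146 and 37.5 µm from the edge, and cells with Pi16 alone at 613, 648 and 183 µm.

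The other genes were tested between gated cells of the margin (1274, 1203 and 1278 cells) and of the interior (2541, 2079 and 429). None of 251 passed in edgeR in either direction (0.0%), with 47 (18.7%) at an unadjusted p under 0.05, and DESeq2 called 16 higher and 21 lower. Sfrp4 stood at 3.75, 4.45 and 9.51 at the margin and at 1.60, 0.476 and 0.154 in the interior (3.17 ± 0.85, SE). In the interior it was under the highest blank code in tumours 2 and 3 (1.102 and 0.538), so the size of this difference is uncertain, and the edgeR adjusted p was 0.219. Fn1 stood at 84.7, 52.6 and 142 against 49.7, 27.1 and 20.2 (1.35 ± 0.46), and Klf4 at 9.21, 7.01 and 16.6 against 5.67, 2.35 and 1.42 (1.76 ± 0.57). Both were higher at the margin in every tumour, with tumour 3 farthest apart. Blank codes had a median log2 difference of 0.62 in this comparison, with the highest at 1.14.

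The makeup and depth of the cells moved with position, most of all in tumour 3. Col1a1 stood at 248, 389 and 435 per 1000 panel transcripts in gated cells of the margin and at 251.5, 351 and 153 in those of the interior. The 5 pan-fibroblast markers summed to 139.8, 139.5 and 155 per 1000 at the margin and to 126, 122 and 51.0 in the interior. The 5 epithelial markers summed to 32.7, 26.9 and 16.6 against 48.5, 46.6 and 84.5. The median transcript number was 135, 142 and 93 at the margin and 165, 195 and 205 in the interior. The part of these differences in the comparison was not tested.

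Sox9 stood at 10.3, 8.99 and 6.60 in gated cells of the margin and at 20.02, 17.6 and 35.6 in those of the interior (-1.59 ± 0.44), higher in the interior in every tumour, most of all in tumour 3. Klf4 and Sox9 were named here after their values were seen. Among cells with 50 to 150 transcripts 25 genes passed as higher and 18 as lower at the margin. With tumour 1 left out 7 genes were higher, with tumour 3 left out 2 were higher and 7 lower, and with tumour 2 left out none passed.

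Gated cells lay nearer to other gated cells and to resident-type macrophages than Col1a1-high cells did. Genes of the rule define both of these classes. Col1a1-high cells held at most 1 gate transcript by that rule, so the distances are a description. The nearest other gated cell was at a median of 19.2, 22.4 and 23.6 µm in tumours 1, 2 and 3, whereas from Col1a1-high cells the nearest gated cell was at 69.7, 49.5 and 131 µm. Another gated cell lay within 25 µm of 61.6%, 55.3% and 52.4% of them, whereas 89.8 to 90.8% of the more numerous Col1a1-high cells had another Col1a1-high cell within it. Chains of gated cells linked at up to 25 µm and of at least 10 cells held 9.54%, 3.54% and 8.66%, and the largest chain held 31, 21 and 15 cells. Such chains of Col1a1-high cells held 43.1 to 49.6% of those. Gated cells had fewer kept cells within 25 µm than Col1a1-high cells had (15.1, 11.6 and 9.42 against 22.9, 14.2 and 17.2 on average).

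Resident-type macrophages, gated by at least 3 transcripts of Cd163, Folr2 and Ccl8, were at a median of 49.4, 74.1 and 74.05 µm from gated cells and of 135, 150 and 230 µm from Col1a1-high cells. The log2 ratio of these distances was -1.37 ± 0.32 (SD, n = 3; exact permutation p = 0.25, the smallest possible; 0.5 after Benjamini-Hochberg adjustment over 6 distances). Gated cells were nearer in all 3 tumours. Within the margin alone the ratio was -0.59 ± 0.10 and within the interior -0.76 ± 0.53, again nearer in all 3. These splits were chosen after the data were seen. Resident-type macrophages made up 2.56%, 2.33% and 2.53% of the kept cells within 25 µm of gated cells, against 0.529%, 0.923% and 0.277% around Col1a1-high cells. The gate itself admits at most 1 transcript of these macrophage genes, so a cell with at least 3 transcripts of both kinds counted as a macrophage here. The part of such cells in these distances was not tested.

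Over the whole sections, distance to vessel cells had no common direction. Within the margin, a split chosen after the data were seen, gated cells were farther than Col1a1-high cells, and within the interior there was again no common direction. The nearest endothelial-gated cell, with at least 3 transcripts of Pecam1 and Cdh5, was at 26.0, 37.9 and 109 µm from gated cells and at 29.6, 41.5 and 67.5 µm from Col1a1-high cells (log2 ratio 0.12 ± 0.49; exact permutation p = 1). Gated cells were slightly nearer in tumours 1 and 2 and farther in tumour 3. Without tumour 3 the ratio was -0.16, and within the margin it was 0.37 ± 0.12, farther in all 3 tumours. For pericyte-gated cells (Pdgfrb and Rgs5) the ratio was 0.17 ± 0.36, -0.04 without tumour 3, and 0.55 ± 0.15 within the margin, farther in all 3 tumours. Tumour macrophages, gated by Adgre1 and Cx3cr1, had a ratio of 0.15 ± 0.31, and of 0.43 ± 0.14 within the margin, again farther in all 3. From the other kept cells the endothelial-gated cells were at 39.7, 56.2 and 75.6 µm. Within the interior the endothelial ratio was -0.13 ± 0.29 and the pericyte ratio -0.07 ± 0.25, farther in 1 tumour each. Among kept cells within 25 µm, endothelial-gated cells made up 6.10% and 4.66% around gated cells of tumours 1 and 2. Around Col1a1-high cells they made up 3.165% and 3.26%. The log2 ratio of these shares was 0.39 ± 0.63 over the 3 tumours, negative in tumour 3. For pericyte-gated cells it was 0.32 ± 0.52, again negative in tumour 3.

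**Figure D5:**
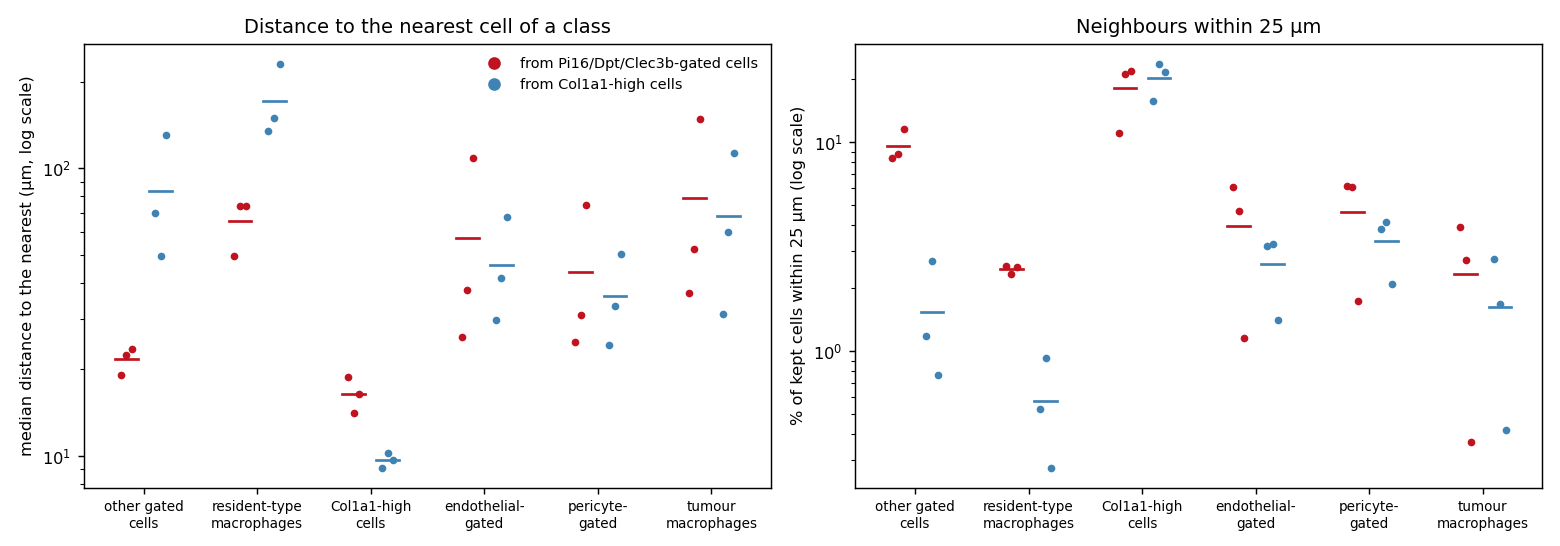
Left, median distance (µm, log axis) from gated cells and from Col1a1-high cells to the nearest cell of 6 classes. Right, share of each class among kept cells within 25 µm (%, log axis), with a point per tumour and a line at the mean of the 3 tumours. The resident-type macrophages stand at 49.4 to 74.1 µm from gated cells and at 135 to 230 µm from Col1a1-high cells, and the endothelial-gated cells overlap.

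Cells beside gated cells were compared with cells beside Col1a1-high cells, leaving out both classes themselves and any cell near both. None of 258 genes passed in edgeR in either direction (0.0%), 42 (16.3%) had an unadjusted p under 0.05, and DESeq2 called 18 higher and 24 lower. The 3 gate genes, Cd163 and Ccl8 had the lowest p-values. These genes chose the cells, and the classes left out of the neighbours were defined by them, so their levels are a description. Clec3b stood at 0.698, 0.574 and 0.332 per 1000 panel transcripts beside gated cells and at 0.247, 0.189 and 0.182 beside Col1a1-high cells. Cd163 stood at 1.10, 0.715 and 0.385 against 0.153, 0.188 and 0.166. Of the genes outside the rule Pmepa1, the TGF-beta target gene, had the lowest p, with 27.5, 38.8 and 31.1 against 33.0, 44.5 and 39.8 (-0.35 ± 0.07, SE; edgeR adjusted p = 0.234), and was named here after its values were seen.

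Around cells with a gate of 5 or more transcripts, 34 genes were higher and 8 lower. With a radius of 15 µm 2 genes were higher. Without tumour 1 there were 2 higher genes, without tumour 3 there was 1, and without tumour 2 none.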

How the data were processed

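Transcripts of 258 genes and 27 blank codes were counted per segmented cell in 3 tumours. The deposited tables hold raw counts per cell and gene with no normalization, per the file headers, beside the volume and centre of each cell. No unit is stated, and µm and µm3 were assumed. Scanpy 1.9.3 is listed, with no role, per the submitters' processing notes. For decoding and cell segmentation the software was not given in the sources used here. The authors' design text states a panel of 265 genes, and 258 were used here.

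Counts of the cells in each class were summed per tumour, giving 6 sums per comparison. They were tested in edgeR 4.0.16 (R 4.3.3, limma 3.58.1) by the two-sided quasi-likelihood F-test, blocked on the tumour, after filterByExpr and TMM scaling, with Benjamini-Hochberg adjustment over all genes tested and a threshold of 0.05. Both arms come from the same section, which is why the tumour pairs them. The 7 genes of the rule were left out of 3 of the 4 comparisons and of their library sizes. The scripts were tested on simulated data. Distances and shares were tested by exact sign-flip permutation over the tumours (SciPy 1.17.1).

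The tissue outline was drawn on 25 µm squares, and where the outline met the imaging limit (1800 µm in tumour 2, 2875 µm in tumour 3) it was continued outward. No doublet caller was run. Named genes were the rule genes, the 12 largest called differences in each direction with 1 sign in all tumours and a level above the highest blank, and the members of the fibroblast, matrix, protease, cytokine, Wnt antagonist and TGF-beta lists above the blanks. Ly6c1, Il33, Pparg, Trdv4, Lep, Retn, Cd36 and Crabp1 were named outside this rule after their values were seen. Of the genes the rule takes, 1 is not reported here. The gated cells and the lists were chosen with earlier results of these data known. The alternatives were DESeq2 1.42.0, library size scaling, no filter, no block, each tumour left out, other gates, other depths and other distances.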

Additional observations from a re-analysis of the deposited data

How the results depend on the processing

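Depth and segmentation limit these results: the classes rest on few transcripts per cell, and with 3 tumours an exact permutation test cannot go below 0.25. The causes of the changes below were not tested. Against Col1a1-high cells, 6 genes were higher and 0 lower, and the counts became 20 and 6 with library size alone, 21 and 14 with DESeq2, 44 and 39 with a gate of 5 or more, 36 and 19 with at least 2 gate genes, 13 and 4 with no resident macrophage transcript, 39 and 31 with a Col1a1 limit of 10%, 15 and 4 with 20% and no gate transcript, 46 and 36 with no epithelial marker transcript, 31 and 34 at 50 to 150 transcripts, and 19 and 6 at 40 or more. With no replicate block, that is without the pairing by tumour, 2 genes were higher. Chosen after seeing the data, the margin gave 14 and 5 and the interior 0 and 0. Leaving out each tumour in turn gave 3 to 18 higher and 1 to 10 lower. Against the other kept cells the count of lower genes fell from 80 to 51 with no replicate block, and the block changed no count of calls between margin and interior or among neighbours. For margin against interior (0 and 0), DESeq2 gave 16 and 21, cells with no epithelial marker transcript 6 and 5, and 50 to 150 transcripts 25 and 18, and leaving out a tumour gave 0 to 7 higher and 0 to 7 lower. For neighbours (0 and 0), DESeq2 gave 18 and 24, a gate of 5 gave 34 and 8 and a radius of 15 µm gave 2 higher, and leaving out a tumour gave 0 to 2 higher. The mean of the 3 tumours' shares of gated cells was 0.288% with a gate of 5 or more, against 0.742%. Library size scaling moved the median gene from 0.08 to 0.27 against the other kept cells and from 0.14 to 0.28 between margin and interior.

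Values that had not passed changed sign against Col1a1-high cells. With a gate of 5 or more, Ccl2 was 0.090, Dkk3 0.21, Mmp14 0.30 and Sparc 0.51. With a Col1a1 limit of 10%, Dkk3 was 0.16, Mmp14 0.029 and Sparc 0.16. With no epithelial marker transcript, Dkk3 was 0.011, Mmp14 0.084 and Sparc 0.32. With at least 2 gate genes, Mgp was -0.064 and Sparc 0.0085. Within the margin, Mmp3 was -0.089, Mmp14 0.024 and Sparc 0.26, and within the interior Pdgfra was -0.097, Mmp3 -0.35, Thbs1 0.12 and Thy1 -0.33. Sparc was 0.037 with library size alone and 0.26 at 50 to 150 transcripts. Leaving out a tumour gave -0.30 to 0.048 for Dkk3, -0.17 to 0.037 for Mmp14 and -0.15 to 0.21 for Sparc. The log2 ratio of endothelial distance was -0.13 within the interior, -0.041 with an endothelial gate of 5 and -0.16 to 0.28 with a tumour left out, that of pericyte distance -0.072 within the interior and -0.036 to 0.30 with a tumour left out, and that of tumour macrophage distance -0.040 within the interior. Of the other values for single genes and distances, 696 kept direction and, for genes, side of the threshold. Distances were judged by direction alone. For genes 111 values passed where they had not and 7 no longer passed.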

Other observations

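Between gated and Col1a1-high cells, where 2.39% of all genes were higher and 0.0% lower, lists of 7 to 14 genes with no call are near that share, and their counts say nothing particular of these pathways. Of 11 Notch pathway genes none passed, 2 values were positive and 9 negative, and the median was -0.13 beside -0.02 over all genes tested. Of 14 Wnt receptor and feedback genes and 7 Wnt ligands none passed. Of 10 interferon genes none passed and 8 values were negative, and of 10 immediate early genes Klf4 alone passed.

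Against the other kept cells, 39.0% of all genes were higher and 31.9% lower, and the counts below are to be read beside these shares. Among the 140 genes above the blank codes, 40 were higher and 70 lower. Among 14 Wnt receptor and feedback genes 2 were higher and 7 lower, among 11 Notch pathway genes 3 were higher and 5 lower, among 10 interferon genes 1 was higher and 6 lower, and among 10 immediate early genes 2 were higher and 6 lower. Of 14 cytokine and chemokine genes 7 were higher and 1 lower, with 1 of the 14 above the blank codes.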
